A study of Mus musculus with 17 samples.

Results

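The genes described here are those of the cytosolic ribosomal proteins, the protein part of the small (40S) and large (60S) subunits of the ribosome. They were chosen by symbol, as every gene named Rps or Rpl with a number and at most an a, l or x behind it, together with the stalk proteins Rplp0, Rplp1 and Rplp2 and with Rpsa. The rule found 81 of the 23284 gene symbols in the count tables, 32 of the small subunit and 49 of the large one. RNA was sequenced from 17 mouse tumours that the labels call neuroendocrine tumours of the pituitary, to find genes that depend on Crebbp, which encodes an acetyltransferase that coactivates transcription. The tested genotype was Rb1/Trp53/Crebbp (8 tumours) and its control was Rb1/Trp53 (9 tumours), so all 17 carried engineered alleles of Rb1, the retinoblastoma gene, and of Trp53, the gene of p53. The cells in which the alleles were recombined, the animals' age and sex and whether each tumour came from its own mouse are not given in the labels. The p-values thus reflect the spread among these libraries, which may be partly technical.

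The tissue label held for some of the libraries only. Pomc, the hormone precursor of pituitary corticotrophs and melanotrophs, exceeded Calca, the calcitonin gene of thyroid C cells, in 10 libraries, and Calca exceeded Pomc in 7. They are called Pomc-high and Calca-high below. These are sets read from the counts and not groups of the study. Pomc-high libraries came from 4 Rb1/Trp53/Crebbp tumours (numbers 5, 6, 7 and 8) and 6 Rb1/Trp53 tumours (2, 5, 6, 7, 8 and 9). Calca-high libraries came from 4 Rb1/Trp53/Crebbp tumours (1, 2, 3 and 4) and 3 Rb1/Trp53 tumours (1, 3 and 4). In the Calca-high libraries the pituitary regulators Tbx19 and Pax7 stood at no more than 0.36 and 0.207 CPM (the gene count scaled to a common library total), against at least 275 and 141 CPM in the Pomc-high ones. Crebbp itself stood at 76.6 to 109 CPM in the Calca-high libraries labelled Rb1/Trp53/Crebbp and at 47.2 to 53.8 CPM in those labelled Rb1/Trp53. In the Pomc-high set it stood at 41.0 to 62.6 and 34.7 to 114 CPM. The labels do not say which part of the gene the allele removes, so the count over the whole gene does not check the genotypes. The genes of a library held 8328297 to 28140755 counts.

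Ribosomal protein mRNAs are among the most abundant in growing cells. In vertebrates most of them begin with a cytosine followed by a run of pyrimidines, the 5' terminal oligopyrimidine tract, through which mTORC1 signalling controls their translation, and Myc raises their transcription. Free Rpl5, Rpl11, Rpl23 and Rpl26 bind Mdm2 when ribosome assembly fails, a route to p53 in cells that have it. In bulk tissue, fewer cells of a type and less RNA per cell cannot be told apart.

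The start of the gene is the sequence that the ribosomal protein genes are known to share. The stretches below run from 35 bases before to 20 bases after the annotated RefSeq start (GRCm38.p6), on the coding strand. Capitals mark a run of at least 5 C or T letters that begins with C and lies within 10 bases of the start. The first 4 genes are shown because they carry such a run, Rps10, Rps21 and Rpl27a being also among the genes called below. Rps28 and Rps4x are shown because they had no such run and gave the lowest genotype value in the Calca-high libraries among called genes (Rps28) and the highest value between the sets (Rps4x).
Rps10 (chr17:27635225-27635279, minus strand): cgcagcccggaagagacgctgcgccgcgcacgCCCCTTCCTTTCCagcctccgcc
Rps21 (chr2:180257344-180257398, plus strand): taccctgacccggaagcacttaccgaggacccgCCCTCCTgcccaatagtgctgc
Rpl27a (chr7:109519160-109519214, plus strand): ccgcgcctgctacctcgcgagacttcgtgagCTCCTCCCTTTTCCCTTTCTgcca
Rpl13a (chr7:45128726-45128780, minus strand): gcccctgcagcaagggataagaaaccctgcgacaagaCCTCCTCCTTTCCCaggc
Rps28 (chr17:33824543-33824597, minus strand): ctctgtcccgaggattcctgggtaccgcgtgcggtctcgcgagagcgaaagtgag
Rps4x (chrX:102189372-102189426, minus strand): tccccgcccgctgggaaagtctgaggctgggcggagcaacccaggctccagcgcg

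Of the 81 genes, 60 matched a RefSeq promoter of 300 bases. A pyrimidine run at the start was found in 33 of these 60 (55%), against 30.6% of all 27025 promoters. The word CCGGAAG, which matches the core bound by ETS factors and can be read in the Rps10 and Rps21 stretches above, was found on either strand in 24 of 60 (40%), against 9.22% of all promoters. The E-box CACGTG was found in 5 of 60 (8.33%), against 7.16%, and TGACGTCA, the word of cAMP response elements, also in 5 of 60, against 1.85%. TATAAA was found in 5 of 60 as well, against 14.2%. A match is a description of these letters and not a binding site. In the Calca-high genotype comparison described below, genes with and without the pyrimidine run had median log2 fold changes of -0.54 (31 tested) and -0.53 (27 tested).

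The transcripts were short, with a median of 851 bases against 3019.5 bases for the other genes tested, and 53 of the 81 were under 1000 bases. Many had near-copies elsewhere in the genome. In the median gene 50.7% of the 50-base words of its transcript also occurred in a transcript of another gene, and only 3 of the 81 had no shared word. The counts leave out reads that aligned to several places, so levels of these genes are uncertain where copies exist. In the Calca-high genotype comparison the 41 genes with at least 50% of words shared had a median of -0.50 and the 38 tested genes with less had a median of -0.54.

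Of the 81 genes, 74 averaged at least 10 CPM, between 55.5 CPM for Rps27l and 1108 CPM for Rpl10, and per kilobase of transcript they ran from 34.8 to 1521 CPM with a median of 504. The 6 most abundant by CPM were Rpl10, Rpl4, Rpsa, Rps3a, Rplp0 and Rpl13a. Below 10 CPM stood 7 genes. Among them were 3 restricted paralogs, Rpl3l of striated muscle and the testis genes Rpl10l and Rpl39l, the last with a total of 18 counts over all libraries and Rpl10l with 1. The others were Rpl26 (0.643 CPM on average), Rps27 (1.59), Rpl34 (5.05) and Rpl30 (5.1), which are ordinary subunit genes, and the reason for their low counts was not tested.

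Together the 81 genes took 2.85%, 2.90%, 2.55% and 2.39% of the gene counts in the Calca-high Rb1/Trp53/Crebbp tumours 1 to 4, against 3.43%, 3.16% and 3.31% in the Calca-high Rb1/Trp53 tumours 1, 3 and 4. All 4 libraries with the Crebbp label lay below all 3 without it. In the Pomc-high set they took 4.54%, 3.55%, 4.17% and 3.88% in Rb1/Trp53/Crebbp tumours 5 to 8, against a lowest, median and highest share of 2.92%, 3.70% and 4.06% in Rb1/Trp53 tumours, and here the groups overlapped. The widest 95% Wilson interval on such a share was ± 0.013 percentage points, which covers counting error only. Because Pomc took 10.6% to 27.8% of the gene counts in the Pomc-high set and Calca 4.03% to 16.5% in the Calca-high set, the share was also taken without these genes. It was then 2.85% ± 0.274 and 3.86% ± 0.0588 in the Calca-high Rb1/Trp53/Crebbp (SD, n = 4) and Rb1/Trp53 (SD, n = 3) tumours, and 4.94% ± 0.732 and 4.80% ± 0.683 in the Pomc-high Rb1/Trp53/Crebbp (SD, n = 4) and Rb1/Trp53 (SD, n = 6) tumours.

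**Figure D1:**
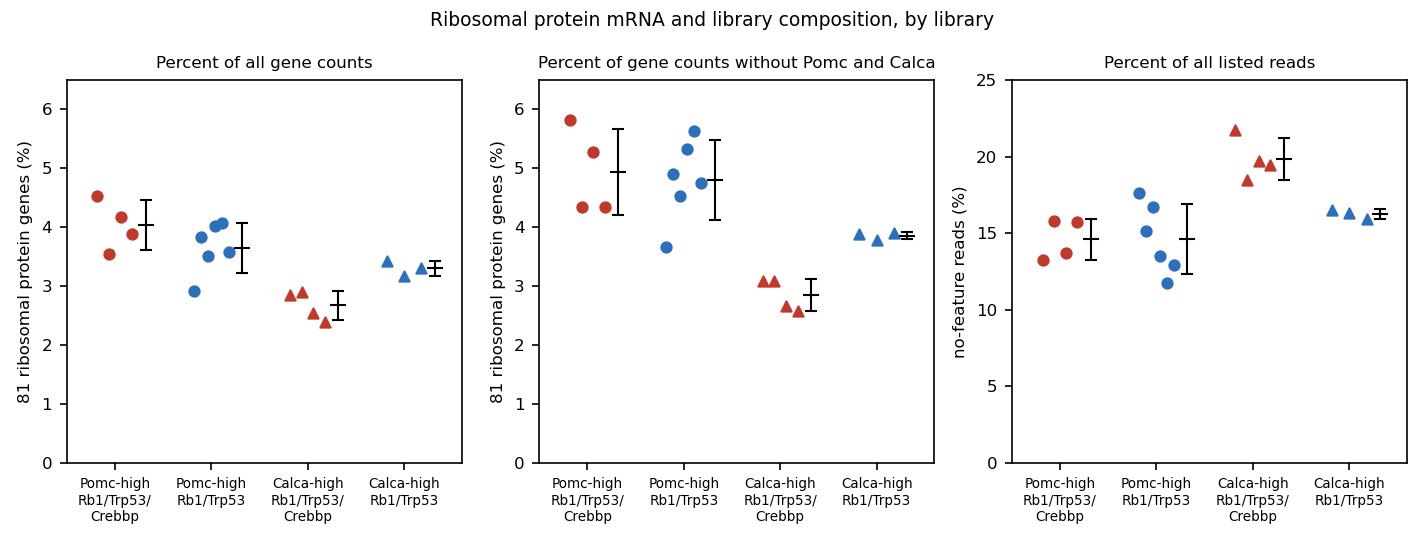
Share of the 81 ribosomal protein genes in all gene counts (left) and in the counts without Pomc and Calca (middle), and share of no-feature reads in all listed reads (right), in percent. Each point is a library (circles Pomc-high, triangles Calca-high, red Rb1/Trp53/Crebbp, blue Rb1/Trp53) and bars are mean ± SD. The Calca-high Rb1/Trp53/Crebbp libraries have the lowest shares of ribosomal protein counts (2.39% to 2.90%) and the highest shares of no-feature reads (18.5% to 21.7%).

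The mRNAs for proteins of both subunits were mostly lower in the Calca-high tumours labelled Rb1/Trp53/Crebbp, compared with the Calca-high Rb1/Trp53 tumours. Of 79 genes tested, 71 were lower and 0 were higher, 30 of 32 of the small subunit and 41 of 47 of the large one. The background in this comparison was high, with 36.2% of all 14797 tested genes called and 17.1% called lower (edgeR's quasi-likelihood test, adjusted p under 0.05). The median log2 fold change of the ribosomal protein genes was -0.53, against -0.02 over all tested genes. Levels below are scaled CPM, that is CPM divided by the library's TMM scaling factor.

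Among the small-subunit genes, Rps21, a structural protein of the 40S subunit, had the smallest adjusted p. It stood at 178, 181, 172 and 168 scaled CPM in Rb1/Trp53/Crebbp tumours 1 to 4, against 282, 280 and 321 scaled CPM in Rb1/Trp53 tumours 1, 3 and 4. The groups lay far apart compared with their spread, and the log2 fold change was -0.73 ± 0.08 (SE; edgeR adjusted p = 0.00126). Rps10, a gene mutated in human Diamond-Blackfan anaemia, stood at 195, 200, 148 and 181 scaled CPM, against 332, 316 and 304 (log2 fold change -0.79 ± 0.12, edgeR adjusted p = 0.0025). Rps28 had the lowest value of all called genes, with 117, 121, 83.4 and 105 scaled CPM, against 199, 199 and 189 (log2 fold change -0.86 ± 0.13, edgeR adjusted p = 0.0027). Rps6, the substrate of S6 kinase, was lower by less, at 554, 531, 455 and 467 scaled CPM, against 704, 738 and 710. In Rps10, Rps28 and Rps6 too every library labelled Rb1/Trp53/Crebbp lay below every Rb1/Trp53 library.

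Other small-subunit genes that fell were Rps23 (log2 fold change -0.72), a protein of the decoding centre, Rps29 (-0.71), Rps25 (-0.70), Rps19 (-0.61) and Rps26 (-0.60), the last pair also Diamond-Blackfan genes, and Rps13 (-0.51). The X-linked Rps4x fell by 0.44 on the log2 scale. Rpsa, a 40S protein also known as the precursor of the laminin receptor, fell by 0.37. The small-subunit genes not called were Rps7 (-0.38, edgeR adjusted p = 0.0532) and the barely counted Rps27 (0.28 ± 0.34, edgeR adjusted p = 0.546).

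Of the stalk proteins, which recruit the elongation factors, Rplp1 stood at 497, 521, 450 and 479 scaled CPM in Rb1/Trp53/Crebbp tumours 1 to 4, against 854, 773 and 815 scaled CPM in Rb1/Trp53 tumours 1, 3 and 4. The ranges did not overlap (log2 fold change -0.72 ± 0.10, edgeR adjusted p = 0.0019). Rplp2 fell by 0.50, and Rplp0, which anchors both, by 0.30 (edgeR adjusted p = 0.0408). Scaling on short transcripts gave Rplp0 a log2 fold change of 0.04 in place of the fall.

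Of the Mdm2 binders, Rpl23 stood at 321, 337, 254 and 252 scaled CPM in the Rb1/Trp53/Crebbp tumours, against 491, 505 and 478 scaled CPM in the Rb1/Trp53 tumours (log2 fold change -0.74 ± 0.13, edgeR adjusted p = 0.0045). Rpl11 fell by 0.56 and Rpl5 by 0.42, both with no overlap between groups. Rpl5 was at 469, 555, 393 and 407 scaled CPM, against 662, 595 and 593. Rpl26 was counted at 0.70 to 1.17 scaled CPM, against 0.96 to 1.46, and was not called (edgeR adjusted p = 0.531).

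Other large-subunit genes that fell were Rpl37 (log2 fold change -0.65), Rpl10 (-0.60), which completes the peptidyl transferase centre late in assembly, Rpl27 (-0.57), Rpl39 (-0.54) of the exit tunnel and Rpl22 (-0.37), a tumour suppressor of T cells. Rpl30 fell by 0.77 from a level of 3.38 to 8.10 scaled CPM over these libraries. Those not called were Rpl23a (-0.36), Rpl13a (-0.39), Rpl13 (-0.27), Rpl3 (-0.19, edgeR adjusted p = 0.209), Rpl26 and the muscle paralog Rpl3l. Rpl3l stood at 0.63, 2.27, 0.19 and 0.36 scaled CPM, against 5.92, 0.80 and 2.62, with overlapping groups. Of the remaining paralogs, Rps27l, a p53 target, fell by 0.42 (57.9, 55.9, 44.9 and 50.5 scaled CPM, against 70.7, 76.5 and 65.6).

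**Figure D2:**
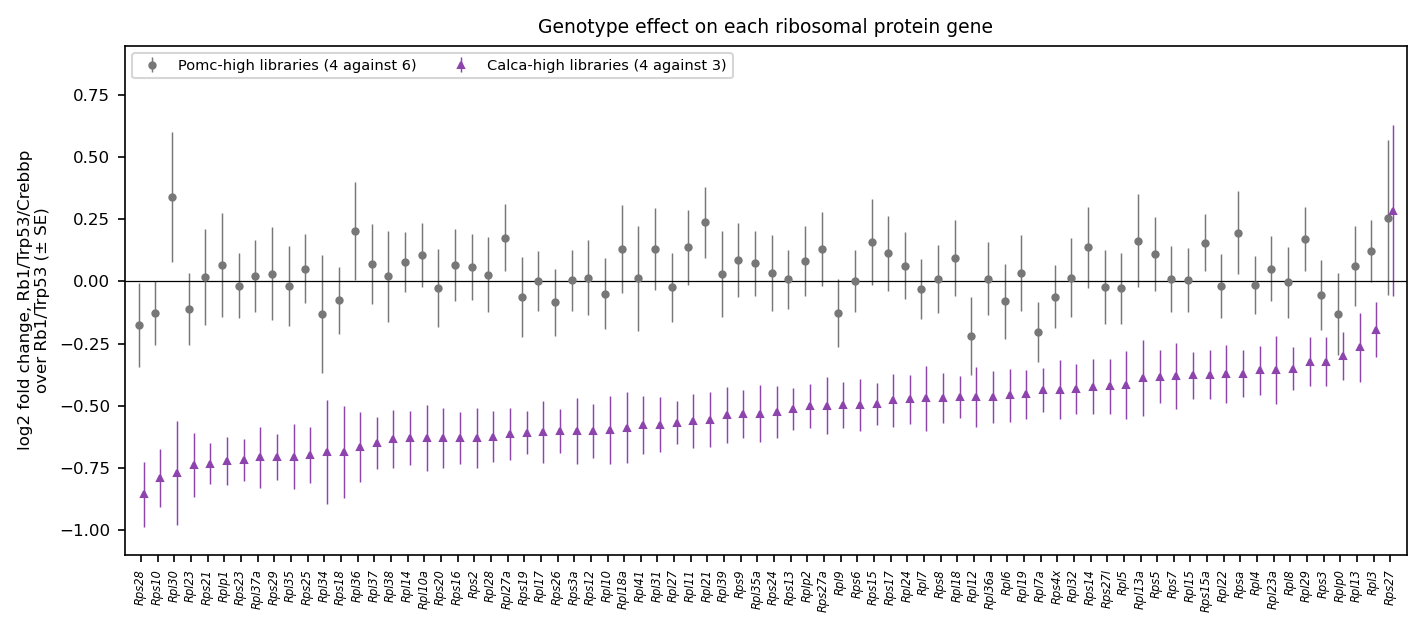
Log2 fold change of Rb1/Trp53/Crebbp over Rb1/Trp53 tumours ± SE for 76 of the 77 ribosomal protein genes tested in both sets (grey circles Pomc-high, purple triangles Calca-high), ordered by the Calca-high value. In the Calca-high set all but Rps27 lie below 0, while in the Pomc-high set values lie between -0.22 and 0.34.

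Other measures of these libraries moved with the genotype. Reads assigned to no annotated feature made up 19.8% of reads in the Calca-high Rb1/Trp53/Crebbp libraries and 16.2% in the Rb1/Trp53 ones. Calca took 6.25% and 14.5% of the gene counts, and the total ran from 8328297 to 15490074 counts and from 20361712 to 28140755 counts. None of these 3 groups of values overlapped, and each had an exact two-sided permutation p of 0.0571, the smallest that 4 against 3 allows (adjusted p = 0.114 over 8 such tests). With the share of no-feature reads as a covariate, 0 ribosomal protein genes were called, of only 51 genes called in all, at a median of -0.57. The share of no-feature reads and the genotype cannot be told apart in this set.

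The genotype values also ran with transcript length. Over tested genes that were not ribosomal protein genes, divided into 5 equal groups by length, the median log2 fold change was -0.35 in the shortest group (up to 1755 bases, 37.0% of genes lower) and 0.39 in the longest (from 4966 bases, 46.8% higher). The 70 ribosomal protein genes within the length of the shortest group had a median of -0.54. With libraries scaled on short transcripts, a setting added after the data had been seen, 17 ribosomal protein genes were lower at a median of -0.20. That scaling moved the median of all genes to 0.32, and 87.2% of called genes were then higher, against 52.7% in the main test. Scaling by the total count alone gave 39 lower genes, a median of -0.33 over the ribosomal protein genes and 0.18 over all genes, with 77.2% of calls higher. The gap between the ribosomal protein genes and all genes was -0.51 in the main test and -0.52 and -0.51 under these scalings. A change of scaling moves all genes by nearly the same amount, so this gap could hardly differ and is no test of the result.

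**Figure D3:**
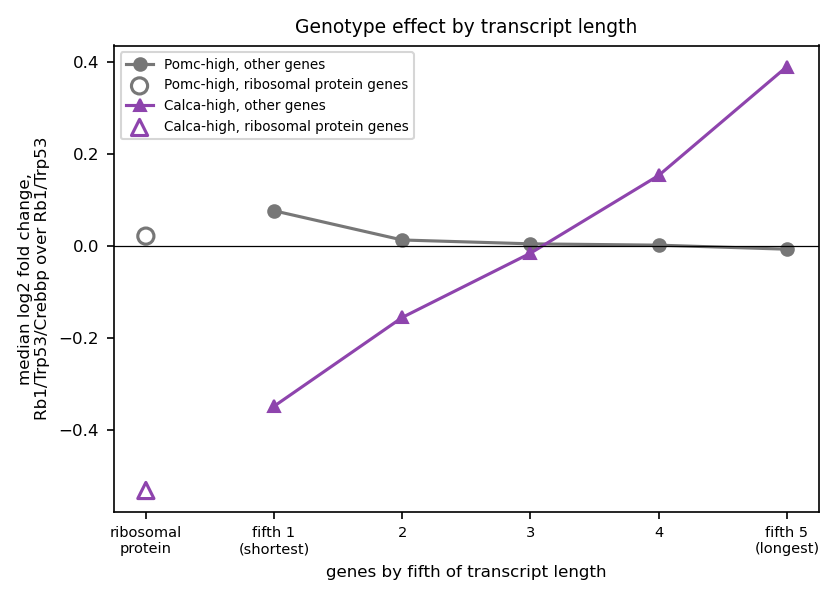
Median log2 fold change of Rb1/Trp53/Crebbp over Rb1/Trp53 tumours for other genes in 5 groups of transcript length (filled symbols) and for the ribosomal protein genes (open symbols), in Pomc-high (grey circles) and Calca-high (purple triangles) libraries. The Calca-high medians run from -0.35 in the shortest group to 0.39 in the longest, with the ribosomal protein genes at -0.53, and the Pomc-high medians lie between -0.01 and 0.08.

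Markers of other cells differed between these Calca-high groups as well. The 3 fat markers summed to 6.39 to 11.2 CPM in Rb1/Trp53/Crebbp libraries and 25.6 to 115 CPM in Rb1/Trp53 libraries, and all 3 were called lower. Of these, Adipoq stood at no more than 0.60 CPM and at 2.50 to 20.3 CPM. It passed the filter on low counts only through the Rb1/Trp53 libraries, so its direction is no result. Fabp4 stood at 5.88 to 11.2 CPM and 22.4 to 86.5 CPM, so Plin1 too was low in the Rb1/Trp53/Crebbp libraries. The 4 thyroid follicle markers summed to 1052 to 1418 CPM and 2068 to 16889 CPM, and all 4 were lower. The 5 endothelial markers summed to 30.5 to 42.5 CPM and 47.4 to 60.6 CPM (3 lower), and the 3 markers of cycling cells to 809 to 1094 CPM and 298 to 450 CPM (3 higher). Of 6 macrophage markers 2 were lower, of 3 calcitonin cell markers 3 and of 4 neuroendocrine markers 3. Some markers of other lists were too low to test. Of 3 astroglial markers tested 2 were lower, of 2 lymphocyte markers tested 1 and of 2 markers of Pomc cells tested 1. The last was Pcsk2, while Pomc itself was not called (log2 fold change 0.41, edgeR adjusted p = 0.83). The lymphocyte marker Cd3e was at 0 in all Calca-high Rb1/Trp53/Crebbp libraries. None of 6 fibroblast markers was called, nor was the 1 red cell marker tested, and the 6 anterior lobe hormone genes were too low to test. The part of these cells in the ribosomal protein result was not tested.

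In the Pomc-high tumours the same comparison gave a different picture, with 0 of 77 tested genes called and 0 with an unadjusted p under 0.05, where 8.42% of all 14010 tested genes were called, 3.15% higher and 5.26% lower (edgeR's quasi-likelihood test). DESeq2 and limma-voom also called 0. The median log2 fold change was 0.02, against 0.01 over all genes, with a median SE of 0.15. Rps21 stood at 439, 279, 396 and 290 scaled CPM in Rb1/Trp53/Crebbp tumours 5 to 8, against a lowest, median and highest value of 222, 348 and 469 scaled CPM in Rb1/Trp53 tumours. Rplp1 stood at 1159, 690, 1034 and 682 scaled CPM, against 557, 851 and 1116. In both genes the groups overlapped over most of their range. The extremes were Rpl30 at 0.34 ± 0.26 and Rpl12 at -0.22 ± 0.16. Rpl10l and Rpl39l were too low to test in any comparison, and Rpl26 and Rpl3l too low here and over all 17 libraries.

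In these Pomc-high libraries the share of no-feature reads was 14.6% in Rb1/Trp53/Crebbp tumours and 14.6% in Rb1/Trp53 tumours (exact two-sided permutation p = 0.99). Of the marker lists, 1 of 5 endothelial, 1 of 6 macrophage, 1 of 4 neuroendocrine and 1 of 4 Pomc cell markers were lower. The 1 lymphocyte marker that could be tested was lower too. Pomc took 17.9% and 23.7% of gene counts (exact two-sided permutation p = 0.0476, adjusted p = 0.114). In Rb1/Trp53/Crebbp tumours 5 to 8 it took 22.0%, 18.2%, 20.9% and 10.6%, so tumour 8 lowered the mean. Without tumour 8 the median log2 fold change of the ribosomal protein genes was 0.11, with 0 called.

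The difference between the sets in the genotype effect was itself tested. It was called for 39 of 79 ribosomal protein genes, all of them higher in Pomc-high than in Calca-high tumours, where 22.9% of all 15432 genes were called and 10% were higher. The median difference in log2 fold change was 0.56, against 0.01 over all genes. Rpl27a, a large-subunit protein, had the smallest adjusted p, with a difference of 0.79 ± 0.18 (SE; edgeR adjusted p = 0.00727). It stood at 628, 498, 584 and 501 scaled CPM in Pomc-high Rb1/Trp53/Crebbp tumours and at a lowest, median and highest level of 367, 505 and 604 in Pomc-high Rb1/Trp53 tumours. In the Calca-high set it stood at 340, 317, 276 and 280 scaled CPM in Rb1/Trp53/Crebbp tumours, against 451, 457 and 502 in Rb1/Trp53 tumours. Rpl14 (0.71), Rps23 (0.70), Rpl21 (0.79) and Rps25 (0.75) followed. Rpl11, Rpl23, Rplp1, Rplp2 and Rps6 were also called, while Rpl5 (0.39, edgeR adjusted p = 0.186), Rplp0 (0.17), Rps4x (0.37), Rpl22 (0.35) and Rpl3 (0.31) were not.

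This count was not stable. It was 13 without Rb1/Trp53/Crebbp tumour 5, 17 without tumour 7, 19 without tumour 3, 23 without tumour 4 and 59 without tumour 8. In these fits 2717, 2810, 2487, 2863 and 3620 genes were called in all, against 3530 in the main test. The count of ribosomal protein genes was 16, 18, 24, 24 and 25 without Rb1/Trp53 tumours 3, 4, 6, 9 and 1. Here 2760, 3105, 3211, 3084 and 2598 genes were called in all. Each of these fits with a library left out tested 15392 to 15697 genes, 79 of them ribosomal protein genes. The count was 0 with the share of no-feature reads or of not uniquely aligned reads as a covariate, with 1488 and 1740 genes called in all. It was 2 (Rpl27a and Rps25) with scaling on short transcripts, where 9.37% of all called genes were higher, against 43.9% in the main test.

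Between the sets, ribosomal protein mRNAs were mostly higher in Pomc-high than in Calca-high tumours, with the genotype as a term. Of 79 genes tested, 60 were higher and 3 lower, where 60.1% of all 15432 genes were called, 28.9% being higher and 31.1% lower (edgeR's quasi-likelihood test). Of the 3 lower genes, Rpl26 and Rpl3l passed the filter on low counts only through the Calca-high libraries, where they were higher, so their direction was set by the filter and is no result. Of the 77 genes that also passed over all libraries, 60 were higher and 1 lower. The median log2 fold change was 0.47, against -0.01 over all genes. Rps4x had the largest rise, with a lowest, median and highest level of 701, 872 and 979 scaled CPM in Pomc-high libraries, against 321, 419 and 537 scaled CPM in Calca-high ones. The ranges did not overlap (log2 fold change 1.01 ± 0.10, edgeR adjusted p = 1.39e-07). Rpl4 (0.81), Rps19 (0.87), Rps28 (0.88), Rpl13 (0.74), Rpl23a (0.69), Rpsa (0.66), Rpl22 (0.62), Rps6 (0.61), Rpl9 (0.61) and Rpl3 (0.57) were among the others that rose. Rpl5 (0.48), Rplp0 (0.45), Rpl11 (0.44), Rpl23 (0.41) and Rplp1 (0.47) rose by less. This fit gives 1 value for both genotypes, although the interaction above was called for 39 of 79 genes. Rpl11 averaged 608 scaled CPM in Pomc-high and 352 in Calca-high Rb1/Trp53/Crebbp tumours, but 560 and 526 in Rb1/Trp53 tumours. In Rb1/Trp53 tumours Rpl23 averaged 526 and 491, Rpl4 1376 and 885, and Rpl21 513 and 606, lower in the Pomc-high set.

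The genes at lower levels in Pomc-high tumours were all poorly counted. Rpl26, given as a description for the reason above, stood at a lowest, median and highest level of 0.16, 0.28 and 0.57 scaled CPM in Pomc-high libraries, against 0.70, 1.14 and 1.46 in Calca-high ones. Rpl3l, likewise a description, averaged 0.16 and 1.83 scaled CPM. Rpl34 fell by 0.70 on the log2 scale. The stalk gene Rplp2 (0.17), Rpl10 (0.20), Rpl39 (0.14), Rps27 (-0.20), Rpl30 (-0.24) and Rps27l (-0.22) were not called.

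Markers of other cells moved with the sets as well. The 6 fibroblast markers summed to 32.8 to 241 CPM in Pomc-high libraries and 199 to 818 CPM in Calca-high ones (5 lower), and the 3 cycling markers to 183 to 432 CPM and 298 to 1094 CPM (3 lower). The 4 thyroid follicle markers summed to 6.09 to 144 CPM and 1052 to 16889 CPM (4 lower), and the 5 endothelial markers to 12.6 to 48.9 CPM and 30.5 to 60.6 CPM (3 lower). The 6 anterior lobe hormone genes summed to 10.9 to 13695 CPM and to no more than 0.62 CPM, and all 6 were called higher. Within the Calca-high set 0 of the 6 could be tested. They passed the filter on low counts only through the Pomc-high libraries, so their direction was set by the filter and is no result. Of 6 macrophage markers 1 was lower, and of 4 astroglial markers 2 were higher. The lymphocyte and fat markers that could be tested, 2 in each list, were all lower, and the 1 red cell marker tested was not called. Within the Pomc-high set only 5 fibroblast, 2 thyroid follicle, 1 lymphocyte and 1 fat marker could be tested. The direction of a marker that passed the filter through the Calca-high libraries alone is likewise no result. The part of these cells in the difference between the sets was not tested.

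**Figure D4:**
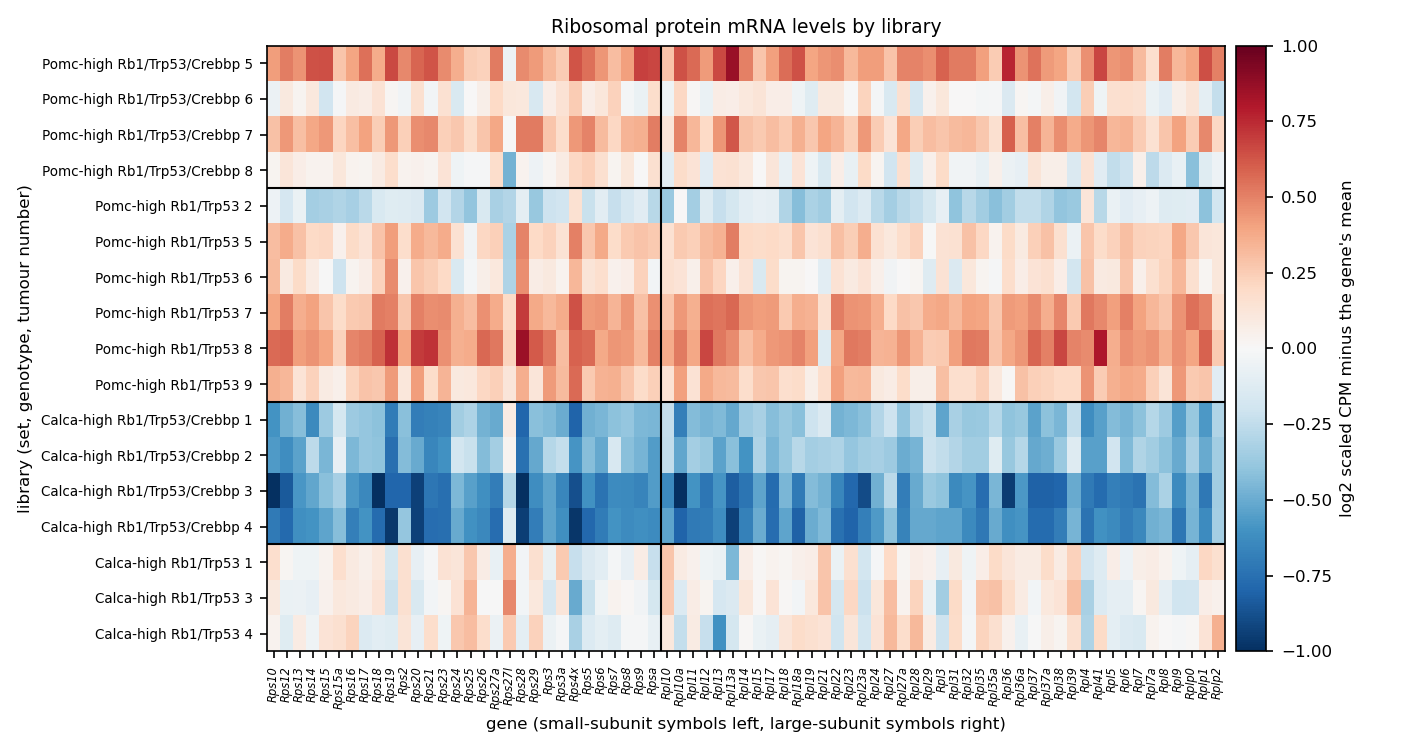
Log2 scaled CPM of 73 of the 74 ribosomal protein genes that averaged at least 10 CPM, minus each gene's mean over the 17 libraries (colours end at -1 and 1). Rows are libraries by set, genotype and tumour number, and columns are genes, small subunit left and large subunit right. The 4 Calca-high Rb1/Trp53/Crebbp libraries are low across nearly all genes, Rb1/Trp53 tumour 2 is the lowest Pomc-high library, and Rps27l departs from the common pattern.

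Within the Pomc-high set, Rb1/Trp53 tumour 2 had the most no-feature reads (17.6%) and the lowest ribosomal protein share without Pomc and Calca (3.67%), and Rb1/Trp53 tumour 8 had the fewest (11.7%) and a share of 5.63%. Between these ends the order was loose. Rb1/Trp53/Crebbp tumour 5 had the highest share (5.82%) at 13.2% no-feature reads, and Rb1/Trp53 tumour 9 had 4.75% at 12.9%. The order did not hold among the Calca-high Rb1/Trp53/Crebbp libraries, where tumour 1 had the most no-feature reads (21.7%) and the highest share (3.09%), while tumour 4 had 19.4% and 2.58%. The slope of each gene on the share of no-feature reads was fitted over the 10 Pomc-high libraries with the genotype as a term. The fit was added after this relation had been seen in the same libraries, so it describes the relation gene by gene and is no independent test of it. The slope was negative and called for 42 of 77 ribosomal protein genes and positive for 0, where 2.36% of all 14010 genes were called and 1.75% were called negative. The median slope was -0.11 per percentage point, against 0.00 over all genes (edgeR's quasi-likelihood test). Rplp1 had the steepest slope, -0.18 ± 0.03, followed by Rpl41 (-0.18), Rpl38 (-0.15) and Rpl39 (-0.15), each with an edgeR adjusted p of 0.0261. In Rpl31 (-0.14), Rpl35 (-0.14) and Rpsa (-0.14) it was nearly as steep, and Rplp2 (-0.08), Rpl3 (-0.08), Rpl5 (-0.10), Rpl4 (-0.07) and Rps6 (-0.08) were not called. The other genes sloped with length here too, from a median of -0.06 in the shortest group to 0.05 in the longest. The calls rested on single libraries: 0 were left without Rb1/Trp53 tumour 2, 7 or 8 or without Rb1/Trp53/Crebbp tumour 7. In each of these fits only 1 gene was called in all, against 331 in the main fit, so nearly all calls were lost. Without Rb1/Trp53 tumour 6 there were 19, of 68 genes called in all, and without Rb1/Trp53/Crebbp tumour 5 there were 11, of 103. Scaling by total count gave 12 and left 94.1% of all calls positive, against 26.0%. The median slope stayed between -0.12 and -0.09 with any library left out.

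With the share of no-feature reads as a covariate, the difference between the sets was called for 22 of 79 ribosomal protein genes. Of these, 15 were higher and 7 lower in Pomc-high tumours, and the median log2 fold change was 0.08. In this fit 8283 of all 15432 genes were called, against 9270 in the main test. Rps4x (0.72), Rpl4 (0.58) and Rps19 (0.50) still rose, while Rpl39 turned to -0.33 and was called lower, and Rplp1 stood at -0.12 and was not called.

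**Figure D5:**
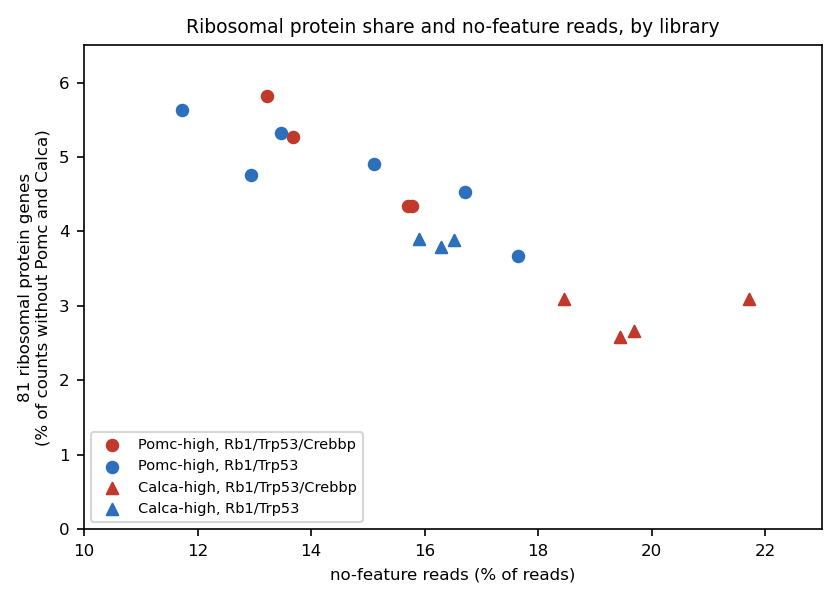
Share of the 81 ribosomal protein genes in the counts without Pomc and Calca against the share of no-feature reads, both in percent, 1 point per library (circles Pomc-high, triangles Calca-high, red Rb1/Trp53/Crebbp, blue Rb1/Trp53). Libraries with more no-feature reads tend to have lower ribosomal protein shares within the Pomc-high set, and the Calca-high Rb1/Trp53/Crebbp libraries lie at the low end, between 2.58% and 3.09%.

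Over all 17 libraries, 0 of 77 ribosomal protein genes were called for the genotype and 8 had an unadjusted p under 0.05, where 3.86% of all 14338 genes were called, 1.81% higher and 2.05% lower. The median was -0.25, against -0.02 over all genes, and the lowest values were those of Rps28 (-0.52), Rps10 (-0.45), Rpl23 (-0.42) and Rpl12 (-0.41). The result depended on the tool. DESeq2 called 1 ribosomal protein gene (Rpl7a) and limma-voom 0. Limma-voom with quality weights called 72, of them 71 lower, but it called 7454 of all 14338 genes, against 554 in the main test. Without Rb1/Trp53/Crebbp tumour 5 or 7 the count of ribosomal protein genes was 1 (Rpl7a). With the set as a term it was 7 of 77, where 2575 of all 14338 genes were called. These 7 were Rpl7a, Rpl9, Rpl12, Rpl23, Rps10, Rps26 and Rps28.

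Ribosomal proteins and partners outside the symbol rule did as the members did in the Calca-high tumours, where 6 of 6 were lower in the libraries labelled Rb1/Trp53/Crebbp. Among these were Rpl36al (-0.70), Fau (-0.53), which carries the 40S protein Rps30, Rpl22l1 (-0.78), Rpl7l1 and Gnb2l1, the 40S scaffold Rack1. For the lists that follow, 19.1% of all tested genes were higher and 17.1% lower in this comparison, and the genes named are those with the smallest adjusted p. Of 52 genes of RNA polymerase I and ribosome assembly, 6 were higher, among them Mdn1 (0.96) and Utp20 (0.50), and 3 lower, among them Nop10 (-0.63), at a median of 0.09, both shares below those of all genes. Of 44 translation factors 8 were higher, such as Eif4g2 (0.47), and 10 lower, such as Eef1g (-0.63), both near the shares of all genes. Of 20 genes of mTORC1 and the tract's regulators 6 were higher, including Tsc1 (0.69), Eif4ebp2 (1.20) and Larp4 (0.51), and 3 lower. In the Myc family 3 of 12 were higher, Myc (0.85), Mga (0.60) and Mxd4 (0.53), a count near the share of all genes.

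Subunits of 3 other complexes were set beside 17.1% lower over all tested genes and 37.0% lower in the shortest group of other genes. Of 82 subunits of oxidative phosphorylation 54 were lower and 0 higher (median -0.41), including Ndufb2 (-0.82) and Cox6b1 (-0.63). Of 76 mitochondrial ribosomal proteins 32 were lower and 0 higher (median -0.28), including Mrps6 (-1.24) and Mrps36 (-0.91). Of 37 proteasome subunits 10 were lower and 0 higher (median -0.16), with 27 not called. In the Pomc-high tumours none of the ribosome assembly, translation factor, mTORC1, mitochondrial ribosome or proteasome genes was called, 1 subunit of oxidative phosphorylation was higher and 1 lower, Mxd1 was higher (0.44) and Mycn was lower (-0.99, edgeR adjusted p = 0.0207).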

How the data were processed

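Poly(A) RNA was sequenced from 17 tumours, and the authors deposited a count of reads per gene for each, with no normalization. Per the submitters' processing notes, bcl2fastq 1.8.2, TopHat2 2.0.12, HTSeq 0.6.1 and the mm9 build were used. Annotation, strand setting and read filters: not given in the sources used here. The 5 summary rows without a gene were left out of totals and tests. No-feature reads made up 11.7% to 21.7% of listed reads, not uniquely aligned reads 8.20% to 18.5% and ambiguous reads 0.56% to 0.843%. Each file was tied to its tumour, and the genotype was taken from the labels.

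Genes kept by filterByExpr were tested with edgeR 4.0.16 (R 4.3.3; TMM scaling, robust quasi-likelihood F test, Benjamini-Hochberg adjustment over all tested genes, threshold 0.05), after a test on simulated data. Each SE was derived from the fold change and its F statistic. Alternatives used DESeq2 1.42.0, limma 3.58.1, other scalings, filters and covariates, and left out each library. Composition was compared with exact permutation tests (scipy 1.17.1). Transcript lengths and shared words came from GENCODE M21 and promoters from RefSeq, both on GRCm38, which is not the build of the counts, and were matched by symbol.

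Genes named are, per comparison, up to 12 called genes with the smallest adjusted p, the 4 highest and 4 lowest fold changes, the 6 most abundant genes, those not tested, and a fixed group of stalk, Mdm2-binding and paralogous genes. The ribosomal protein genes and the lists were chosen with earlier results of these data known. Single values of a few genes are not reported here.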

Additional observations from a re-analysis of the deposited data

Results flagged for a closer look

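The effect of the Crebbp genotype on 39 ribosomal protein genes differed between Pomc-high and Calca-high tumours by edgeR's interaction test. Among the genes named by the rule, the difference in log2 fold change (Pomc-high minus Calca-high) was 1.10 for Rpl30, 0.87 for Rpl36, 0.79 for Rpl21, 0.79 for Rpl27a, 0.79 for Rplp1, 0.75 for Rps25, 0.73 for Rpl10a and 0.73 for Rpl37a. It was 0.71 for Rpl14, 0.70 for Rpl11, 0.70 for Rps23, 0.69 for Rps16, 0.68 for Rps2, 0.66 for Rps10, 0.62 for Rpl23, 0.60 for Rpl17, 0.58 for Rplp2 and 0.49 for Rps6. The dependence of these calls on single libraries and on the share of no-feature reads is given with the test above.

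In 5 of 186 groups of 4 or more libraries, 1 library stood far from the rest by Dixon's criterion, which chance gives in about 1 in 20 groups. Among the Pomc-high Rb1/Trp53 libraries, tumour 2 stood apart at the low end with 850 scaled CPM of Rpl10 and 385 scaled CPM of Rpl9. Tumour 6 stood apart with 2.34 scaled CPM each of Rpl34, the lowest value of the group, and of Rps27, the highest. Among the Calca-high Rb1/Trp53/Crebbp libraries, tumour 3 stood apart with 421 scaled CPM of Rps2.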

How the results depend on the processing

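Counts below are ribosomal protein genes called, with some medians of the log2 fold change, and the cause of each change was not tested. For the genotype in Calca-high tumours (71, median -0.53), total count scaling gave 39 (-0.33), the no-feature share as covariate 0 (-0.57), the not uniquely aligned share 25 and scaling on short transcripts 17 (-0.20), where Rplp0 turned to 0.038. For the interaction (39), these covariates gave 0 (0.26) and 0, of 1488 and 1740 genes called in all, and short transcripts 2 (0.18). Between the sets (63), the no-feature covariate gave 22 (0.075), of 8283 genes called in all, with Rpl39 at -0.33 and Rplp1 at -0.12. For the no-feature slope (42), total count scaling gave 12 (-0.067), DESeq2 69, limma-voom with weights 70, the not uniquely aligned share 0 and short transcripts 12 (-0.046). In these fits 1031, 1026, 1350, 1 and 2177 genes were called in all, against 331 in the main fit. Over all libraries (0), DESeq2 gave 1, limma-voom with weights 72 (-0.57) and the set as a term 7. In these fits 1397, 7454 and 2575 genes were called in all, against 554 in the main test. The median of -0.25 was -0.055 with the no-feature covariate and -0.084 with total count scaling. Leaving out each library gave 54 to 73 (Calca-high), 0 to 0 (Pomc-high), 0 to 1 (all), 13 to 59 (interaction), 61 to 68 (sets) and 0 to 56 (slope). With the tumour number as a replicate block, the counts were 0 in Pomc-high, 50 in Calca-high and 1 (Rps28) over all libraries. Same-numbered deviations correlated between -0.16 and 0.22, and 2 of 7 tumours correlated best with their own number. So few correlations cannot show whether the numbers pair the tumours. Pomc-high gave 0 under every alternative run, with a median of 0.14 under total count scaling and -0.060 under the block, against 0.02. Rpl26, Rpl3l and Rps27 had 173, 271 and 379 counts over all libraries.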
